A study of Homo sapiens with 6 samples.

Results

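The nuclear-encoded respiratory chain genes are the genes of the cell nucleus that make most protein subunits of the 5 complexes of oxidative phosphorylation, together with assembly factors and an inhibitor that share their names. Members were taken by symbol: names beginning with NDUF, UQCR, ATP5 or SDH, or with COX4 to COX8, without pseudogene names, and with at least 10 counts in 3 or more libraries. This gave 96 members of the 58735 rows in the table. Of the members, 79 encode subunits (36 of complex I, 4 of complex II, 9 of complex III, 13 of complex IV and 17 of complex V). Another 13 encode assembly factors, 1 encodes the inhibitor of the ATP synthase, and 3 are non-coding RNAs named after a subunit gene. Of 270 rows that begin with one of these letters, 164 were left out by name, and 10 had a fitting name but too few counts. Just inside the count limit, NDUFV2 had 6, 12 and 10 counts in the OTUD1 siRNA libraries and 8, 8 and 18 in the control siRNA libraries. Just outside it, NDUFA7 had 17, 18 and 6 counts in the OTUD1 siRNA libraries and 9, 6 and 7 in the control siRNA libraries. COX4I2, COX6A2, COX7B2, ATP5MGL and the read-through gene NDUFC2-KCTD14 had 0 counts in every library.

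The RNA came from ACHN, a human renal cancer cell line, grown in serum-supplemented medium and transfected with an siRNA (a small interfering RNA that targets an mRNA for degradation). One set of libraries received an siRNA against OTUD1, a deubiquitinase that removes ubiquitin from other proteins, and the other set a control siRNA. Each group held 3 libraries of 1 cell line, and the labels name 1 OTUD1 siRNA, so off-target effects of that siRNA and those of less OTUD1 cannot be told apart. Nothing in the labels states whether replicate libraries were grown separately, and p-values here therefore reflect the spread between these libraries, which may be technical.

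The respiratory chain passes electrons from NADH (at complex I) and succinate (at complex II) through complex III and cytochrome c to oxygen at complex IV. Complexes I, III and IV pump protons across the inner mitochondrial membrane, and complex V, the ATP synthase, uses the gradient to make ATP. Subunits of complexes I, III, IV and V come from both the nuclear and the mitochondrial genome, whereas complex II is built from nuclear genes alone. The renal tubule relies on this pathway for its energy.

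Total counts were 17243433 to 21013530 in the OTUD1 siRNA libraries and 16753495 to 18993534 in the control siRNA libraries. OTUD1 was at 1.17 ± 0.288 CPM (counts scaled to a common library size) in the OTUD1 siRNA libraries and 3.77 ± 0.0684 CPM in the control siRNA libraries (SD, n = 3 each). OTUD1 thus fell, with a log2 fold change of -1.69 (SE 0.24, adjusted p = 4.37e-07 by the quasi-likelihood test of edgeR), from 17 to 28 counts in the OTUD1 siRNA libraries against 61 to 67 in the control siRNA libraries. All 8 renal epithelial markers were tested, and 6 of them fell and 1 rose. Their summed level was 3176 to 3289 CPM in OTUD1 siRNA libraries against 6491 to 6695 CPM in control siRNA libraries. Of 8 leukocyte markers, PTPRC, CD3E, CD3D, MS4A1 and LYZ had 0 counts in every library, and the list summed to at most 1.57 CPM. The 8 fibroblast and endothelial markers summed to 12.4 to 15.3 CPM in OTUD1 siRNA libraries and 8.14 to 10.4 CPM in control siRNA libraries. The part of these marker differences in the results below was not tested. In these bulk samples, less RNA of a gene per cell and fewer cells that express it cannot be told apart.

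After OTUD1 siRNA, most of the respiratory chain genes that changed were modestly higher, while a few single subunits were clearly lower. SDHA, the catalytic subunit of complex II, fell 2.25-fold, and COX4I1, a subunit of cytochrome c oxidase, fell 1.71-fold. ATP5MD, a small subunit of the ATP synthase, rose 1.48-fold. Of the 96 members, 46 rose and 11 fell at an adjusted p under 0.05, which is 47.9% and 11.5%. Among all 15244 genes tested, 29.3% were higher, 31.1% lower and 60.4% called in either direction. The members' median log2 fold change was 0.13, and that of all genes tested was 0.01. Log2 fold changes here are of OTUD1 siRNA over control siRNA, with libraries scaled by the trimmed mean of M values (TMM). Most changes were small: 8 members rose by at least 0.5 on the log2 scale, against 14.4% of all genes tested. SDHA was the 1 member that fell by at least 1, against 3.53% of all genes tested.

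How the libraries were scaled moved these counts. The TMM factors were 1.045 to 1.046 in all OTUD1 siRNA libraries and 0.955 to 0.957 in all control siRNA libraries. With library totals instead, the median of all genes moved to 0.13, and 67 members were called higher and 5 lower. Of the called members, 93.1% were then higher, against 80.7% with TMM. Upper-quartile factors gave 61 higher and 5 lower, and quantile normalization with limma gave 58 and 6. Among all genes the counts were 6189 higher and 3456 lower with library totals, against 4460 and 4746 with TMM. They were 5643 higher and 3793 lower with upper-quartile factors, and 4749 and 4341 after quantile normalization. Of all called genes, 64.2% were higher with library totals, 59.8% with upper-quartile factors, 52.2% after quantile normalization and 48.4% with TMM. Less the median of all genes, the members' median was 0.12 with TMM, with DESeq2 size factors, with upper-quartile factors and with library totals, and 0.21 after quantile normalization. SDHA, COX4I1, NDUFV1, NDUFA12 and ATP5S kept their call as lower under every scaling, filter and left-out library that was run.

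**Figure D1:**
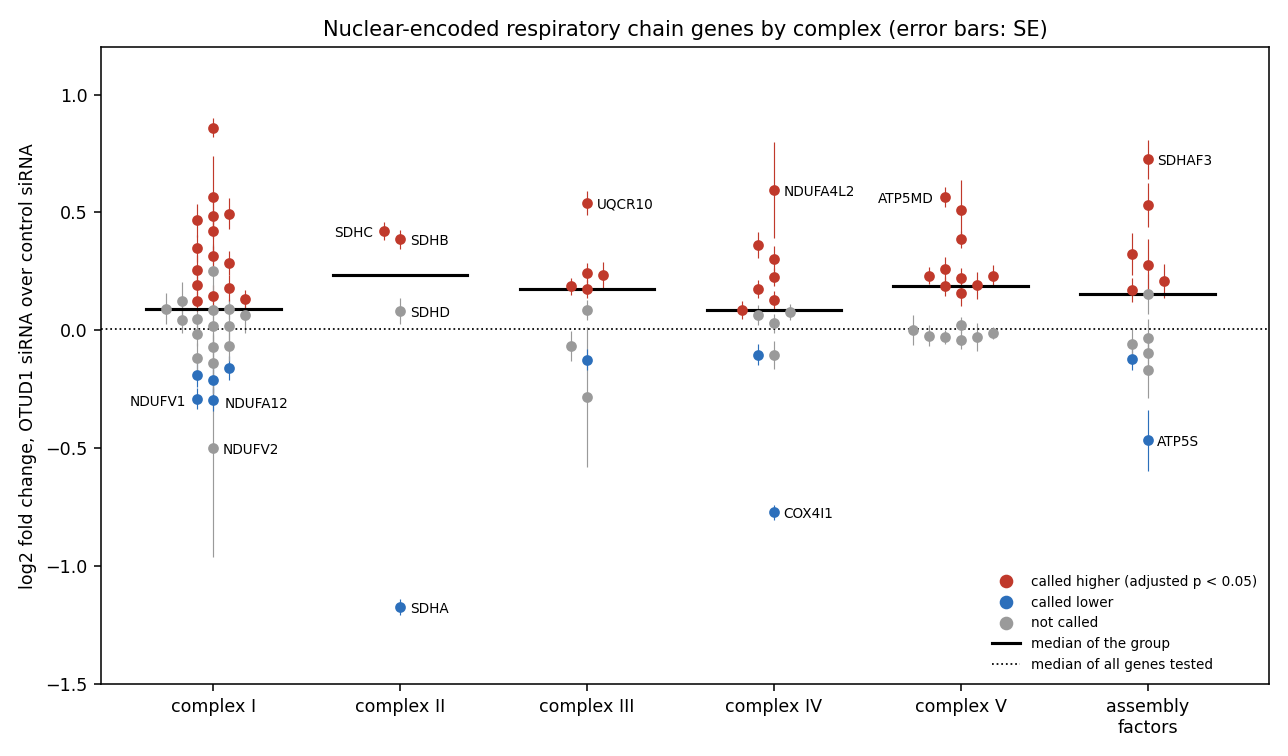
Log2 fold change (OTUD1 siRNA over control siRNA, vertical axis) of each subunit gene by complex and of the assembly factors, with bars for the SE, TMM scaling and n = 3 libraries per group. Most coloured points lie above 0 while SDHA (-1.17) and COX4I1 (-0.77) lie far below, and no complex V subunit was called lower.

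Complex II oxidises succinate to fumarate and is the only complex shared with the tricarboxylic acid cycle. Its 4 subunit genes did not move together: SDHA fell, SDHB and SDHC rose, and SDHD did not pass the test. Windows of 250 bases before to 50 bases after the annotated start of a gene are given for the subunits that differ in direction, and for COX4I1, from RefSeq (GRCh38.p14). No window is shown for SDHC. Capitals mark matches, on either strand, to 4 short motifs: GCGCANGCG, a form of the site of NRF1, CCGGAAG, an ETS-type site of the kind bound by GABPA, AAGATGGCG for YY1, and AAGGTCA for estrogen-related receptors. The windows are chr5:218070-218369 on the plus strand for SDHA, chr1:17053983-17054282 on the minus strand for SDHB, chr11:112086623-112086922 on the plus strand for SDHD and chr16:85799445-85799744 on the plus strand for COX4I1.
SDHA: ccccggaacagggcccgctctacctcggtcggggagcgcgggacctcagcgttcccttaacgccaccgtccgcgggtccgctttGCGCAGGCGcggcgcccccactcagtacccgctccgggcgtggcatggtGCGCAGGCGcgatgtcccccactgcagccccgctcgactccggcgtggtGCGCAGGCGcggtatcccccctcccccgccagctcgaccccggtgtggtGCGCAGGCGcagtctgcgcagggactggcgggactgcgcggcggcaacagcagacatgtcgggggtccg
SDHB: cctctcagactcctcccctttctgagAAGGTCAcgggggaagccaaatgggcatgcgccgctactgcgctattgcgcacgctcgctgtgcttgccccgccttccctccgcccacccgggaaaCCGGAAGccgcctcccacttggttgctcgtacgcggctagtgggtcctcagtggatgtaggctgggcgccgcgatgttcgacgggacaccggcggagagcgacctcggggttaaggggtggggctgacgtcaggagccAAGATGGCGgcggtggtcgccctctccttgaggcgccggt
SDHD: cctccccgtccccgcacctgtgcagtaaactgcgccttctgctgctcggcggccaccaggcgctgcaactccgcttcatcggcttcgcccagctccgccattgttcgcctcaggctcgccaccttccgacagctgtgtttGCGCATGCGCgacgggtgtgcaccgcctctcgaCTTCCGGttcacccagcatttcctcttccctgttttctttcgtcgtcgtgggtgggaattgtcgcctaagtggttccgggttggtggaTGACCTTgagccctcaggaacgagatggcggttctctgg
COX4I1: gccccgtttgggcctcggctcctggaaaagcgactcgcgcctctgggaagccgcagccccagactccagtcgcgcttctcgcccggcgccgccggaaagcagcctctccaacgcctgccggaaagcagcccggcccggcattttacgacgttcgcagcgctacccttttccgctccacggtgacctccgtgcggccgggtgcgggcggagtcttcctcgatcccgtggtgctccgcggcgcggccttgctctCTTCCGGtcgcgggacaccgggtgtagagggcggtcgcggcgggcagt
The SDHA window holds 4 matches to the NRF1 motif, all in the letters GCGCAGGCG, and none to the others. SDHB has 1 match each to the ETS, YY1 and estrogen-related receptor motifs, and SDHD has 2 to NRF1, on both strands of the same stretch, with 1 to ETS and 1 to the receptor motif. COX4I1 has 1 match to ETS.

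Of the 93 protein-coding members, 78 had a promoter window. The NRF1 motif was in 25 of these 78 windows (32.1%), against 8.05% of all 27305 RefSeq windows. The ETS motif was in 23 of the members' windows (29.5%), against 10.7% of all windows. YY1 letters were in 7 (8.97%), against 1.85%, and those of the estrogen-related receptors in 9 (11.5%), against 3.97%. The RefSeq windows were not filtered by expression in these libraries, whereas the members were, so they are not a matched background. The NRF1 motif stood in 11 of the 38 windows of members that rose, in 4 of the 8 of members that fell and in 10 of the 32 of members that did not pass. The ETS motif stood in 11 of the windows of members that rose, 1 of members that fell and 11 of members that did not pass. The YY1 motif stood in 4 windows of members that rose, 0 of members that fell and 3 of members that did not pass. The receptor motif stood in 3 windows of members that rose, 2 of members that fell and 4 of members that did not pass. A match is a description of these letters and is no evidence of binding.

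SDHA (ENSG00000073578.16; hg38 chromosome 5, 218241 to 256700, plus strand) encodes the flavin-bearing subunit that oxidises succinate. It had 165, 166 and 164 CPM in the OTUD1 siRNA libraries, against 389, 361 and 368 CPM in the control siRNA libraries. All OTUD1 siRNA libraries lay far below all control siRNA libraries. SDHA had a log2 fold change of -1.17 (SE 0.034, adjusted p = 9.87e-22 in edgeR), and it lay between -1.004 and -1.19 under every alternative run. The copy SDHAP3 was called higher (log2 fold change 0.52, SE 0.19, adjusted p = 0.0179 in edgeR) and SDHAP1 did not pass (0.05, SE 0.13). Reads may be split between SDHA and these near-identical copies, which stood at 3.56 to 4.57 CPM and 7.79 to 8.30 CPM in OTUD1 siRNA libraries, so the values of all 3 genes are uncertain. SDHAP3 had 83, 92 and 64 counts in OTUD1 siRNA libraries, against 42, 51 and 49 in control siRNA libraries. For SDHAP1 the counts were 182, 157 and 143 against 142, 115 and 140, and for SDHA 3624, 3346 and 2958 against 6209, 6552 and 6297. The extent of such splitting was not tested.

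SDHB carries the iron-sulfur clusters that take electrons from SDHA to the quinone. It had 133, 136 and 129 CPM in OTUD1 siRNA libraries, against 99.0, 104 and 102 CPM in control siRNA libraries. SDHC, a membrane anchor, had 184, 189 and 178 CPM in OTUD1 siRNA libraries, against 131, 139 and 140 CPM in control siRNA libraries. For both genes every OTUD1 siRNA library lay above every control siRNA library, with log2 fold changes of 0.39 (SE 0.04, adjusted p = 1.79e-09 in edgeR) for SDHB and 0.42 (SE 0.038, adjusted p = 1.3e-10) for SDHC. SDHD, the second anchor, had 65.1, 60.8 and 58.4 CPM in OTUD1 siRNA libraries, against 54.8, 57.9 and 61.5 CPM in control siRNA libraries. The SDHD groups overlapped, and its log2 fold change of 0.08 (SE 0.055, adjusted p = 0.196 in edgeR) did not pass with TMM. It passed as higher with library totals (0.21), upper-quartile factors (0.18), quantile normalization (0.17) and a minimum mean of 5 CPM (0.13).

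Within a library, ratios of genes do not depend on the scaling. The SDHA to SDHB ratio of CPM was 1.24, 1.22 and 1.27 in OTUD1 siRNA libraries, against 3.92, 3.47 and 3.62 in control siRNA libraries. The SDHA to SDHC ratio was 0.878 to 0.924 in OTUD1 siRNA libraries and 2.59 to 2.96 in control siRNA libraries. Both ratios were lower in every OTUD1 siRNA library, which shows unequal change of the genes and not which of them changed. Per kilobase of merged exon length, SDHA had 19.7 CPM in OTUD1 siRNA libraries and 44.4 CPM in control siRNA libraries. SDHB had 53.9 CPM per kilobase in OTUD1 siRNA libraries and 41.2 CPM per kilobase in control siRNA libraries. On this scale SDHA was the highest complex II gene in control siRNA libraries, and SDHB in OTUD1 siRNA libraries. The merged length joins the exons of all annotated transcripts, 8383 bases for SDHA, 2462 for SDHB and 14160 for SDHC. The order of genes by level per length, here and below, therefore depends on the annotation and may not be that of the mRNA levels.

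**Figure D2:**
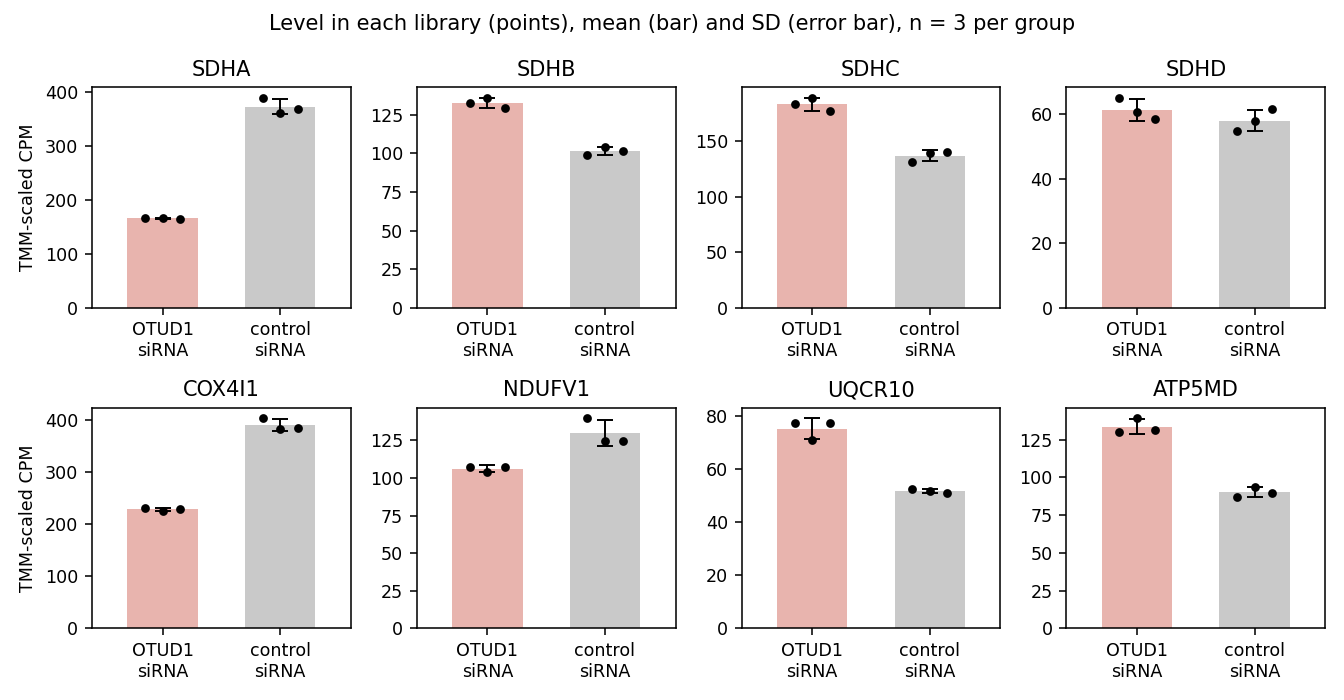
TMM-scaled CPM (vertical axes, starting at 0) of 8 members in each library, with points for the 3 libraries of each group, bars for their mean and error bars for the SD. The OTUD1 siRNA libraries lie below the control siRNA libraries for SDHA, COX4I1 and NDUFV1 and above them for SDHB, SDHC, UQCR10 and ATP5MD, while the groups overlap for SDHD.

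Complex I oxidises NADH. Of its 36 subunit genes, 15 rose and 5 fell, and their median log2 fold change was 0.09. With library totals 25 were called higher and 2 lower. In the N module, which binds NADH, 2 of 8 rose and 2 fell. In the Q module, where ubiquinone is reduced, 3 of 6 rose and 1 fell. In the proton-pumping membrane arm 10 of 21 rose and 1, NDUFB4, fell (log2 fold change -0.16).

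NDUFV1 (ENSG00000167792.12; hg38 chromosome 11, 67605653 to 67612554, plus strand) encodes the subunit that binds NADH and the flavin FMN. It had 108, 104 and 107 CPM in OTUD1 siRNA libraries, against 140, 125 and 125 CPM in control siRNA libraries. NDUFV1 fell by 0.29 on the log2 scale (SE 0.044, adjusted p = 1.79e-06 in edgeR), and its groups did not overlap.

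Accessory subunits, which surround the catalytic core, moved in both directions. NDUFA12, of the N module, fell to 58.2 ± 1.86 CPM in OTUD1 siRNA libraries, against 71.3 ± 1.57 CPM in control siRNA libraries. NDUFA5, of the Q module, fell by 0.21 on the log2 scale (SE 0.057), and NDUFAB1, the mitochondrial acyl carrier protein that is also part of complex I, fell by 0.19 (SE 0.051). NDUFA5 lost its call with library totals and upper-quartile factors, and NDUFAB1 also after quantile normalization. In the membrane arm, NDUFA1 rose to 35.8 ± 1.56 CPM in OTUD1 siRNA libraries, against 25.4 ± 0.933 CPM in control siRNA libraries. NDUFB6 rose by 0.47, NDUFB1 by 0.42 and NDUFA10 by 0.32 on the log2 scale. NDUFA2, of the N module, was at 29.2 ± 1.62 CPM in OTUD1 siRNA libraries and 20.9 ± 2.57 CPM in control siRNA libraries, and NDUFV3 of the same module rose by 0.35.

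Some complex I values rest on uncertain counts. NDUFA13, also known as GRIM-19, was called higher from 85 to 127 counts in OTUD1 siRNA libraries and 49 to 78 in control siRNA libraries. Its exons share 21.0% of their length with genes on the same strand, and it lost its call without OTUD1 siRNA replicate 1 (adjusted p = 0.055 in edgeR). NDUFV2, an iron-sulfur subunit, had 0.475 ± 0.176 CPM in OTUD1 siRNA libraries and 0.664 ± 0.336 CPM in control siRNA libraries, and its groups overlapped. It shares 28.4% of its exon length with a gene on the same strand. For NDUFA1, 44.5% of the exon length overlaps RNF113A on the opposite strand, and the labels do not state whether strand was used in counting. NDUFS5, of the membrane arm, had the highest level per length in the complex, with 278 CPM per kilobase in OTUD1 siRNA libraries and 253 CPM per kilobase in control siRNA libraries.

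Complex III passes electrons from ubiquinol to cytochrome c. Of its 9 genes taken by name, 5 rose and 1 fell, with a median log2 fold change of 0.18. CYC1, the cytochrome c1 subunit of complex III, has a name outside the rule and is not among the 9. It did not pass with TMM (log2 fold change -0.07, SE 0.043, adjusted p = 0.154 in edgeR). UQCR10, a small subunit, had 77.4, 70.7 and 77.4 CPM in OTUD1 siRNA libraries, against 52.4, 51.7 and 51.1 CPM in control siRNA libraries. The groups stood well apart, with a log2 fold change of 0.54 (SE 0.051, adjusted p = 2.83e-10 in edgeR). UQCRFS1, the Rieske iron-sulfur protein, rose by 0.24, the small subunit UQCR11 by 0.23, and the core proteins UQCRC1 and UQCRC2 by 0.19 and 0.18 on the log2 scale. UQCRB, a ubiquinone-binding subunit, was called lower with TMM (log2 fold change -0.12, SE 0.043, adjusted p = 0.0154 in edgeR), and its direction turned to 0.01 with library totals. It also lost its call without OTUD1 siRNA replicate 1 and without control siRNA replicate 1, and complex III then had 0 lower calls.

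UQCRH, the hinge protein, and UQCRHL, its near-identical copy, are uncertain, because reads can be split between them. UQCRHL had 9.12, 15.4 and 31.6 CPM in OTUD1 siRNA libraries, against 26.9, 7.98 and 32.6 CPM in control siRNA libraries, a spread within groups far wider than for the other subunits. The sum of both genes was 169.5, 181 and 162 CPM in OTUD1 siRNA libraries, against 178, 187 and 180.3 CPM in control siRNA libraries. The groups overlapped, and neither gene passed the test. UQCRH had the highest level per length in the complex, 108 CPM per kilobase in OTUD1 siRNA libraries and 113 CPM per kilobase in control siRNA libraries.

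Complex IV, cytochrome c oxidase, reduces oxygen to water. Its nuclear subunits surround a core made by the mitochondrial genome, and 7 of 13 genes rose while 2 fell (median log2 fold change 0.09). COX4I1 (ENSG00000131143.8; hg38 chromosome 16, 85798633 to 85807044, plus strand) encodes the common form of subunit 4, which is needed for the assembly of the enzyme. It had 231, 226 and 230.4 CPM in OTUD1 siRNA libraries, against 404, 384 and 385 CPM in control siRNA libraries. Every OTUD1 siRNA library lay far below every control siRNA library, with a log2 fold change of -0.77 (SE 0.032, adjusted p = 3.56e-18 in edgeR). It ran from -0.59 after quantile normalization to -0.78 over the alternatives. COX4I2, which encodes the other form of subunit 4, had 0 counts in every library.

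The other complex IV genes were close to level or higher. NDUFA4, once assigned to complex I and now to complex IV, rose by 0.23 on the log2 scale (SE 0.036), with 254 ± 5.92 CPM in OTUD1 siRNA libraries and 217 ± 10.4 CPM in control siRNA libraries. The COX4I1 to NDUFA4 ratio was 0.890, 0.887 and 0.931 in OTUD1 siRNA libraries, against 1.76, 1.80 and 1.83 in control siRNA libraries. NDUFA4L2, a hypoxia-induced relative of NDUFA4 known for high levels in clear cell renal carcinoma, was at 3.36 ± 0.419 CPM in OTUD1 siRNA libraries and 2.22 ± 0.109 CPM in control siRNA libraries. Its call as higher (log2 fold change 0.60, SE 0.20, adjusted p = 0.0135 in edgeR) was lost after quantile normalization and without OTUD1 siRNA replicate 1. COX7B rose by 0.36, COX8A by 0.30, COX6B1 by 0.18 and COX7A2 by 0.13 on the log2 scale. COX8A had the highest level per length in the complex, with 240 CPM per kilobase in OTUD1 siRNA libraries and 195 CPM per kilobase in control siRNA libraries. COX8A shares 34.5% of its exon length with a gene on the same strand, so its values are uncertain. COX6C was called lower with a log2 fold change of -0.10 (adjusted p = 0.0487 in edgeR), which was 0.03 with library totals. COX6A1 (-0.10 with TMM, 0.03 with library totals) and the supercomplex factor COX7A2L (0.08, SE 0.035, adjusted p = 0.057 in edgeR) did not pass with TMM, and COX7A2L passed as higher with library totals.

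Complex V, the ATP synthase, had 10 of 17 subunit genes higher and 0 lower, with a median log2 fold change of 0.19. At an unadjusted p under 0.05 edgeR also gave 10 genes, and no alternative run called any of the 17 lower. ATP5MD, a small membrane subunit also called DAPIT, had 130.0, 139 and 131 CPM in OTUD1 siRNA libraries, against 86.8, 93.6 and 89.9 CPM in control siRNA libraries. The groups stood apart, with a log2 fold change of 0.57 (SE 0.043, adjusted p = 2.12e-12 in edgeR). ATP5PB, the main protein of the peripheral stalk that holds the catalytic head still, had 167, 167 and 165 CPM in OTUD1 siRNA libraries, against 128, 125 and 128 CPM in control siRNA libraries. The stalk proteins ATP5PF and ATP5PD rose by 0.26 and 0.22 on the log2 scale, and ATP5PO of the same stalk did not pass (-0.03, SE 0.058). ATP5ME, subunit e of the membrane part, was at 14.4 ± 2.4 CPM in OTUD1 siRNA libraries and 10.0 ± 1.99 CPM in control siRNA libraries, with overlapping groups. Of its exon length, 61.6% overlaps MYL5 on the opposite strand, so its value is uncertain, and MYL5 also rose (log2 fold change 0.43, SE 0.12).

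Of the 5 genes of the catalytic head of complex V, 2 rose and 3 did not pass with TMM. ATP5F1E and ATP5F1D, the epsilon and delta subunits of the central stalk, rose by 0.23 (SE 0.045) and 0.19 (SE 0.041) on the log2 scale, each with no overlap between groups. The 3 others were ATP5F1A, ATP5F1B and the gamma subunit ATP5F1C (-0.04, SE 0.038). ATP5F1B, the catalytic beta subunit, had the highest level per length of all members, with 587 CPM per kilobase in OTUD1 siRNA libraries and 592 CPM per kilobase in control siRNA libraries. It had 1353, 1356 and 1377 CPM in OTUD1 siRNA libraries, against 1339, 1397 and 1386 CPM in control siRNA libraries, and the groups overlapped. Its log2 fold change was -0.01 (SE 0.026, adjusted p = 0.695 in edgeR) with TMM, 0.12 with library totals and 0.23 after quantile normalization, and both of these passed as higher. ATP5F1A, the alpha subunit, had 484 ± 7.92 CPM in OTUD1 siRNA libraries and 493 ± 16.3 CPM in control siRNA libraries, and did not pass with TMM. The 3 genes for the c subunit of the rotating ring make the same mature protein, and they differed: ATP5MC3 rose by 0.23 (SE 0.035) on the log2 scale, while ATP5MC1 (-0.02, SE 0.044) and ATP5MC2 (0.02, SE 0.033) did not pass with TMM. With library totals all 3 were called higher. ATP5IF1, which inhibits the enzyme when it runs in reverse, rose to 48.2 ± 1.06 CPM in OTUD1 siRNA libraries, against 37.0 ± 4.53 CPM in control siRNA libraries.

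Among the 13 assembly factors that share the members' names, 6 rose and 2 fell. Of the 4 factors of complex II, 3 rose. SDHAF3, which helps to insert the iron-sulfur clusters of SDHB, had 21.7, 22.8 and 22.4 CPM in OTUD1 siRNA libraries, against 13.3, 13.1 and 14.2 CPM in control siRNA libraries. The groups stood apart, with a log2 fold change of 0.72 (SE 0.084, adjusted p = 1.57e-08 in edgeR). SDHAF1, which acts on the same clusters, rose by 0.53 (SE 0.094), and SDHAF4, which binds SDHA carrying its flavin, rose by 0.32 (SE 0.09). SDHAF2, needed to attach the flavin to SDHA, did not pass (-0.03, SE 0.082). Of the 8 complex I assembly factors 3 rose and 1, NDUFAF3, fell with TMM (-0.12, SE 0.044), a direction that turned to 0.01 with library totals. NDUFAF5 rose by 0.28 (SE 0.11) on the log2 scale and lost this call with DESeq2, among other settings. ATP5S, a relative of coupling factor B, had 5.93, 7.60 and 5.78 CPM in OTUD1 siRNA libraries, against 8.82, 8.70 and 9.17 CPM in control siRNA libraries, with no overlap between groups. The 3 non-coding RNAs named after subunit genes had at most 35 counts in a library, and none passed the test.

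Set beside each other, the complexes had median log2 fold changes of 0.09 (I), 0.23 (II), 0.18 (III), 0.09 (IV) and 0.19 (V), against 0.01 for all genes. Relative to the median of all genes they lay between 0.04 and 0.31 under every setting run. The difference between complexes was not tested, since genes of a complex are not replicates. Medians hide the single genes: the median of complex II is positive although its largest change is the fall of SDHA. The summed level shows this. Complex II genes summed to 547, 552 and 529.7 CPM in OTUD1 siRNA libraries, against 673, 662 and 671 CPM in control siRNA libraries. Complex I summed to 2335, 2369.8 and 2343 CPM in OTUD1 siRNA libraries, against 2209.5, 2099 and 2155 CPM in control siRNA libraries. Complex IV summed to 1806, 1788 and 1775 CPM in OTUD1 siRNA libraries, against 1901, 1773 and 1825 CPM in control siRNA libraries. Thus the sum of complex II was lower and that of complex I higher in every OTUD1 siRNA library, also when scaled by library totals. Complex IV overlapped with TMM, while with library totals it lay at 1856 to 1888 CPM in OTUD1 siRNA libraries, above 1697 to 1815 CPM in control siRNA libraries. Complexes III and V summed higher, to 1012 to 1048 CPM and 3799 to 3879 CPM in OTUD1 siRNA libraries, against 928 to 956 CPM and 3609.6 to 3654 CPM in control siRNA libraries. The sum and median of complex III leave out CYC1.

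**Figure D3:**
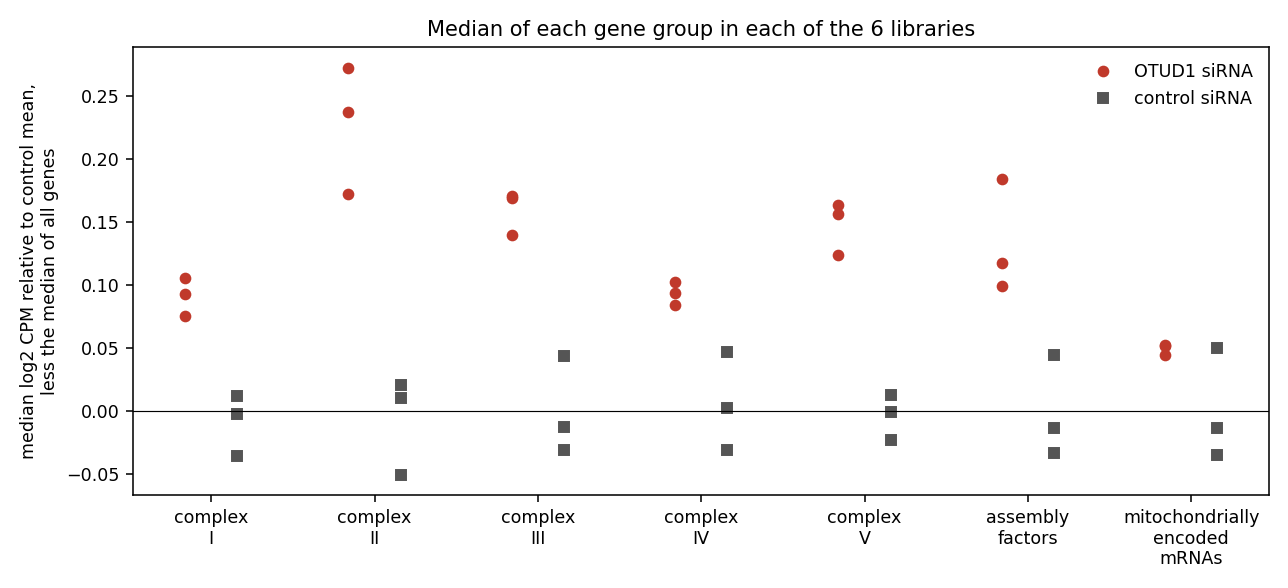
Median, over the genes of each complex, of the log2 CPM in each library relative to the mean of the control siRNA libraries, less the same median over all genes (vertical axis), so that control siRNA libraries lie around 0 by construction. The OTUD1 siRNA libraries of every complex (circles) lie above the control siRNA libraries (squares), while the mitochondrially encoded mRNAs overlap.

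The plot of the members under 5 scalings shows the whole distribution moving with the median of all genes, except after quantile normalization. There the median of all genes stayed at 0.02, against 0.01 with TMM, while the members' median moved up. COX4I1 ran from -0.77 to -0.59 and SDHA from -1.17 to -1.004 on the log2 scale over these 5 scalings, so each kept its direction. No member was called in opposite directions by TMM and any alternative run.

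**Figure D4:**
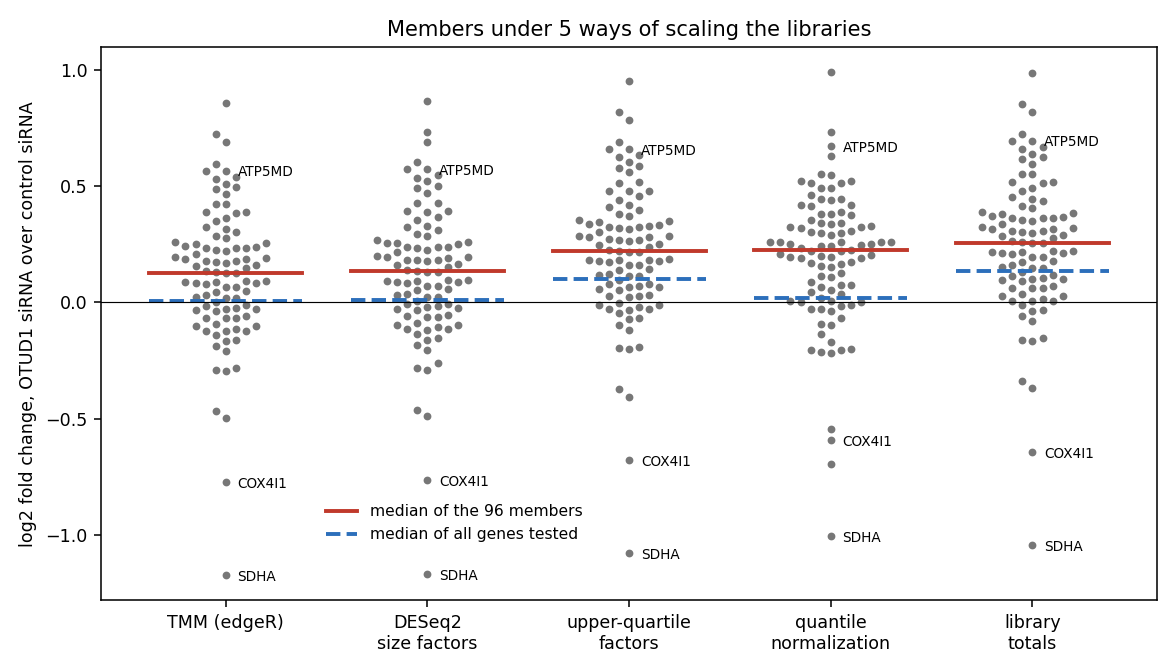
Log2 fold change (OTUD1 siRNA over control siRNA, vertical axis) of the 96 members under 5 ways of scaling the libraries, with solid lines for the members' median and dashed lines for the median of all genes tested. The members' median lies above that of all genes under each scaling, and with library totals both move up (0.26 against 0.13).

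Other genes of oxidative phosphorylation were taken from lists. CYCS, which encodes cytochrome c, had 279, 287 and 281 CPM in OTUD1 siRNA libraries, against 205, 202 and 198 CPM in control siRNA libraries. It rose by 0.49 on the log2 scale (SE 0.033, adjusted p = 2.09e-13 in edgeR), and the 2 other genes of its list, CYC1 and HCCS, did not pass with TMM. Of 46 further assembly factors tested, 19 rose (41.3%) and 8 fell (17.4%), with a median of 0.07. Among all genes tested, 29.3% were higher and 31.1% lower with TMM. TMEM126A, an assembly factor of the membrane arm of complex I, had 8.80, 7.99 and 7.50 CPM in OTUD1 siRNA libraries, against 18.4, 20.5 and 22.2 CPM in control siRNA libraries. This is a log2 fold change of -1.33 (SE 0.10, adjusted p = 3.28e-12 in edgeR), a larger decrease than that of any member. ATPAF2, a chaperone of the ATP synthase head, fell by 0.72 and FASTKD3, a mitochondrial RNA-binding protein, fell by 0.58 on the log2 scale. DMAC1, of complex I assembly, rose by 0.83 and COA5, of complex IV assembly, by 0.64. PET100, of complex IV assembly, rose by 0.90 (SE 0.36) from 0.944 to 1.54 CPM in OTUD1 siRNA libraries, a call lost with DESeq2, after quantile normalization and without OTUD1 siRNA replicate 1, OTUD1 siRNA replicate 2 or control siRNA replicate 1.

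Of the 13 mRNAs of the mitochondrial genome, which complete complexes I, III, IV and V, 6 rose and 3 fell with TMM. These are 46.2% and 23.1%, against 29.3% and 31.1% of all genes tested. With library totals 9 rose and 1 fell, while 9 rose after quantile normalization. The 13 mRNAs summed to 46093, 46373 and 45556 CPM in OTUD1 siRNA libraries, against 44352, 47229 and 45169 CPM in control siRNA libraries. The groups thus overlapped with TMM. MT-ND6 rose by 0.22, MT-ND5 by 0.19 and MT-ND3 by 0.15 on the log2 scale. MT-ND1 (-0.21), MT-ATP6 (-0.16) and MT-ND2 (-0.10) were called lower with TMM, but turned to 0.03, 0.09 and 0.11 when quantile-normalized. MT-ATP6 (adjusted p = 0.00089 in limma) and MT-ND2 (adjusted p = 0.0016 in limma) were then called higher, the opposite of their TMM calls. MT-ND1 did not pass there.

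Of 16 genes of the tricarboxylic acid cycle and pyruvate dehydrogenase, 4 rose (25%) and 7 fell (43.8%) with TMM. Among all genes tested, 29.3% were higher and 31.1% lower. With library totals 8 of the 16 rose and 4 fell, while all genes moved to 6189 higher and 3456 lower. The succinyl-CoA ligase subunit SUCLG1 rose by 0.38 and citrate synthase CS by 0.21 on the log2 scale. The isocitrate dehydrogenase subunit IDH3G fell by 0.55, and the pyruvate dehydrogenase subunits DLAT and PDHB by 0.47 and 0.33. Of 17 regulators of mitochondrial biogenesis tested, 2 rose (11.8%) and 8 fell (47.1%) with TMM, and 3 rose and 3 fell with library totals. TFAM packages mitochondrial DNA and takes part in its transcription. It had 74.1, 73.6 and 78.6 CPM in OTUD1 siRNA libraries, against 119, 119 and 109.7 CPM in control siRNA libraries. Its groups stood well apart, with a log2 fold change of -0.62 (SE 0.045, adjusted p = 1.12e-12 in edgeR). GABPA, the DNA-binding subunit of an ETS factor that acts on many respiratory chain promoters, fell by 0.65 (SE 0.096), the coactivator PPARGC1B by 0.45 and the factor NRF1 by 0.28. ESRRA, an estrogen-related receptor, rose by 0.25 (SE 0.045), and TFB1M, a methyltransferase of mitochondrial ribosomal RNA, by 0.23 (SE 0.087). TFB1M overlapped between groups and was no longer called when control siRNA replicate 3 (0.11 on the log2 scale), OTUD1 siRNA replicate 2 (0.23) or OTUD1 siRNA replicate 3 (0.20) was left out.

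**Figure D5:**
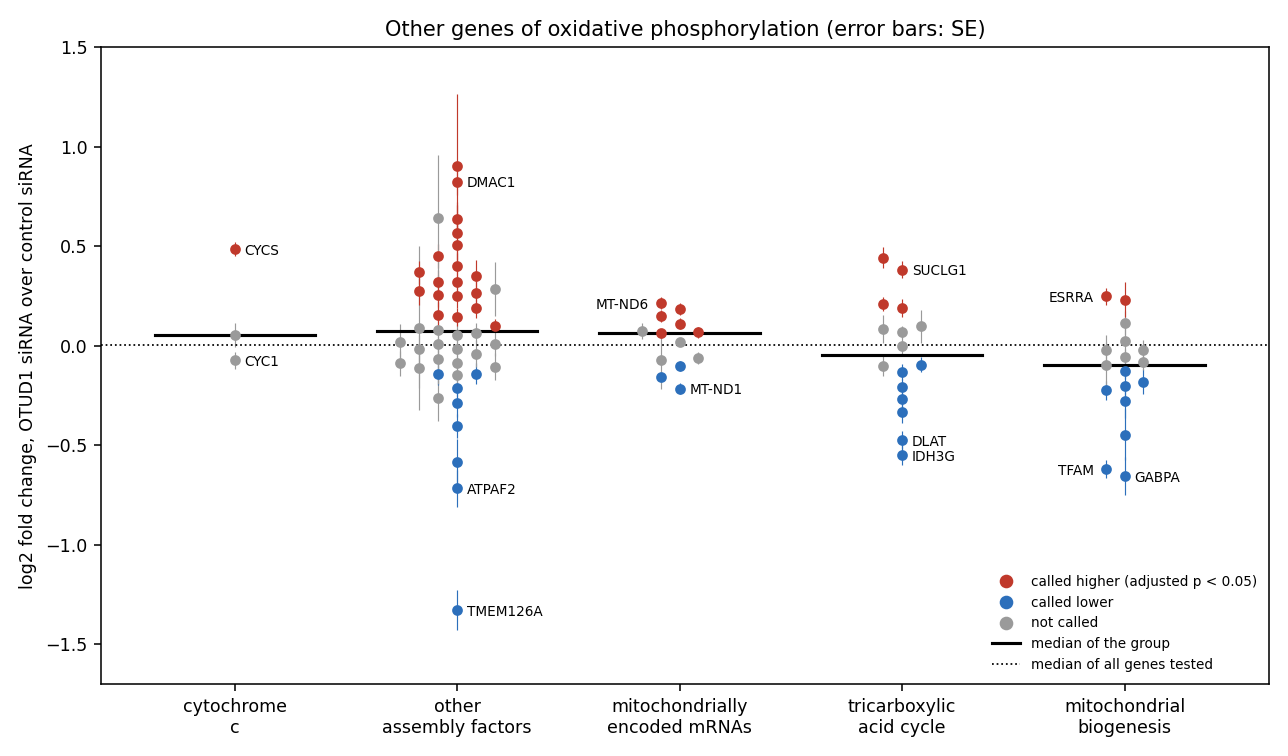
Log2 fold change (OTUD1 siRNA over control siRNA, vertical axis, TMM scaling) of genes of 5 lists around the respiratory chain, with bars for the SE. TMEM126A lies lowest, and the medians of the tricarboxylic acid cycle and biogenesis lists lie below that of all genes with TMM (-0.05 and -0.09), while after quantile normalization the first was 0.06, above it.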

How the data were processed

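RNA of 6 ACHN libraries was extracted with Trizol and prepared with a directional NEBNext Ultra kit, per the labels' protocols. The authors deposited whole-number read counts per gene symbol, in a table whose name speaks of FPKM. The build was hg38, per the submitters' processing notes, and for the aligner, counter, annotation and strand setting nothing is stated in the labels or file header. Counts were tested with edgeR 4.0.16 in R 4.3.3, after filterByExpr with a minimum count of 10 and with TMM factors. The quasi-likelihood test was two-sided, with Benjamini-Hochberg adjustment over 15244 genes and a threshold of 0.05. The procedure was also tested on simulated data with few changed genes, balanced between directions. That test does not bear on the choice of scaling. CPM are scaled by TMM, and the biological coefficient of variation was 3.78%. Alternatives used DESeq2 1.42.0, limma 3.58.1, other scalings and filters, and each library left out. Gene positions, exon lengths and overlaps came from GENCODE 29, which may differ from the annotation the authors counted with. Tables and plots used Python 3.11.15, numpy 2.4.6, pandas 2.3.3 and matplotlib 3.10.9.

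Libraries were grouped by their labels. The mean chi-square per gene was 2.05 to 3.72 between libraries of a group and 46.8 to 56.5 between groups, and all 6 libraries were kept as separate samples. The members and lists were chosen with earlier results of these data known. Named genes were all SDH subunits, up to 4 called genes with the largest change each way in every other complex and among the assembly factors, named paralogue sets, the highest level per length in each complex, and up to 3 called genes each way in every other list. Further genes, such as NDUFV2, UQCRHL, NDUFB1, the head and stalk subunits of complex V and the marker genes, were named after their values were seen. Some genes that this rule covers are not reported here.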

Additional observations from a re-analysis of the deposited data

How the results depend on the processing

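Scaling moved the counts of lower calls most. Members called lower numbered 11 with TMM, 5 with library totals and with upper-quartile factors, 6 after quantile normalization, 7 with a mean of at least 5 CPM, and 7 to 13 with 1 library left out. Complex I had 25 higher calls with library totals, and its lower calls numbered 2 with library totals and upper-quartile factors and 3 after quantile normalization. Complex III had 0 lower calls with library totals, upper-quartile factors, quantile normalization and the 5 CPM minimum, 2 with no filter, and 0 to 2 with 1 library left out. Complex IV had 1 lower call with DESeq2, library totals, upper-quartile factors, quantile normalization, no filter, 10 counts in 3 libraries and 5 CPM, and 1 to 3 with 1 library left out. Assembly factors had 1 lower call with library totals, upper-quartile factors, quantile normalization and 5 CPM, and 1 to 2 with 1 library left out. The members' median less that of all genes was 0.21 after quantile normalization, 0.078 with no filter, 0.17 with 5 CPM, and 0.089 to 0.14 with 1 library left out. Directions turned for small log2 fold changes. With library totals they were 0.0052 for UQCRB, 0.026 for COX6C, 0.0070 for NDUFAF3, 0.026 for COX6A1, 0.11 for ATP5MC1, 0.063 for UQCRH, 0.12 for ATP5F1B and 0.029 for MT-ND2. With upper-quartile factors they were 0.071 for ATP5MC1, 0.027 for UQCRH and 0.081 for ATP5F1B. After quantile normalization they were 0.0016 for COX6C, 0.0017 for COX6A1, 0.087 for ATP5MC1, 0.055 for UQCRH, 0.23 for ATP5F1B, 0.031 for MT-ND1, 0.087 for MT-ATP6 and 0.11 for MT-ND2. With 5 CPM they were 0.026 for ATP5MC1 and 0.036 for ATP5F1B. With 1 library left out the range was -0.054 to 0.015 for ATP5MC1, -0.011 to 0.051 for ATP5MC2, -0.13 to 0.033 for UQCRH and -0.034 to 0.0019 for ATP5F1B. The cause was not tested. Same-numbered libraries had correlations of 0.028, 0.13 and -0.0025 in their deviations from the group means, and OTUD1 siRNA replicate 3 correlated best with control siRNA replicate 1 (0.091), so the numbers were not taken as pairs. A fit with a replicate block gave 47 members higher and 11 lower.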

Other observations

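Many respiratory chain genes start close to a neighbour that is transcribed in the opposite direction. Taking neighbours on the opposite strand whose start lay within 1000 bases, 33 members had a neighbour with both genes tested, and in 11 pairs both genes were called with TMM scaling. In 7 of these pairs both moved the same way, and in 4 the member was higher and the neighbour lower. Among all genes tested, 29.3% were called higher, 31.1% lower and 60.4% in either direction. Whether such pairs were called together more often than other genes was not tested. The pair of SDHA and CCDC127, whose starts are 26 bases apart, was lower on both sides. CCDC127 had 19.1, 19.8 and 18.3 CPM in OTUD1 siRNA libraries, against 29.8, 27.5 and 27.9 CPM in control siRNA libraries (log2 fold change -0.57, SE 0.074, adjusted p = 1.19e-07 in edgeR). COX4I1 and EMC8, a subunit of the membrane protein insertase EMC, were also both lower. EMC8 had 38.5, 34.7 and 38.3 CPM in OTUD1 siRNA libraries, against 63.0, 69.1 and 67.3 CPM in control siRNA libraries. The annotated exons of COX4I1 and EMC8 overlap over 0.0835% of the exon length of COX4I1.

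ATP5MD and PDCD11, NDUFB5 and MRPL47, UQCR10 and ZMAT5, ATP5ME and MYL5, and NDUFA13 and TSSK6 were both higher. NDUFB1 rose while CPSF2, a factor of mRNA cleavage whose start lies 20 bases away, fell by 0.40 on the log2 scale (SE 0.047), and NDUFV3 rose while WDR4 fell by 0.41 (SE 0.066). SDHD did not pass the test, but TIMM8B next to it, a chaperone of mitochondrial protein import, was at 42.5, 36.7 and 40.4 CPM in OTUD1 siRNA libraries, against 21.4, 21.5 and 20.6 CPM in control siRNA libraries (log2 fold change 0.92, SE 0.07, adjusted p = 2.96e-12 in edgeR). These pairs were noticed in the data and are given as values.

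Some pseudogene copies of members passed the count limit too. COX6A1P2 had 177, 177 and 140 counts in OTUD1 siRNA libraries, against 101, 144 and 114 in control siRNA libraries, and UQCRFS1P1 had 55, 56 and 62 counts in OTUD1 siRNA libraries, against 30, 45 and 41 in control siRNA libraries. Neither passed the test, and reads from COX6A1 and UQCRFS1 could be counted in them.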
